A study of Mus musculus with 15 samples.

Results

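Canonical Wnt signalling switches on a small set of genes that feed back on the pathway, and 10 genes of that circuit were followed in mouse basal cell carcinoma treated with a Hedgehog inhibitor. They were the feedback inhibitors Axin2, Nkd1, Nkd2, Notum and Apcdd1, the LEF/TCF factors Lef1 and Tcf7, the Wnt-responsive transcription factor genes Sp5 and Ascl2, and Ctnnb1, which encodes β-catenin. The members were chosen by name, by mapping the Entrez identifiers of the files to gene symbols, and all 10 were found among 36528 listed genes. Values were taken in all 15 libraries, which held polyA RNA of tumour cells sorted from skin. Of these, 3 libraries came from mice given vismodegib for 14 days, 8 from mice given it for 6 days, and 4 were labelled control. Vismodegib blocks SMO, the transducer of Hedgehog signalling. All groups shared 1 genotype, K14Cre-ER with floxed Ptch1 and p53 alleles and Lgr5GFP. In it, an inducible Cre driven by the keratin 14 promoter acts in basal keratinocytes, so the alleles are removed in that compartment of the epidermis and hair follicles. The labels give neither age, nor the gate of the sort, nor what control mice received. They also do not tie libraries to single animals, so the p-values reflect only how these libraries vary, which may be technical.

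In the absence of Wnt, a complex built on Axin and APC marks β-catenin for destruction. Wnt binding at Frizzled and LRP receptors stops this, and β-catenin then enters the nucleus and acts with LEF/TCF factors bound to DNA. Several of the genes switched on in this way encode inhibitors of the pathway, so their transcripts are widely used as readouts of Wnt activity. In skin, Wnt and β-catenin start hair follicle growth and maintain the matrix cells that build the hair shaft, where Lef1 is prominent, and basal cell carcinomas resemble hair germ cells in many of these features.

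Depth differed with the number ranges into which the submitters' sample identifiers fall. No label calls these ranges batches. All 14-day libraries made up range C (119045864 to 162951666 counts in total per library) and were alone in it. Range A covered 5 libraries at 6 days and controls 1, 2 and 3 (27336935 to 38657170 counts), and range B covered the other 3 at 6 days, replicates 2, 5 and 7, with control 4 (93183564 to 256569828 counts). Range C and 14 days therefore cannot be told apart, and within-range values of the 6-day comparison are given for each tested member. Levels are CPM, counts divided by TMM-scaled library totals and given per 1e6. In any 1 library, 3 counts were worth no more than 0.11 CPM, a floor for counting error only. Of the Hedgehog readouts Gli1, Gli2, Ptch1, Hhip and Foxe1, 3 fell at 14 days (Ptch1, Hhip and Foxe1) and 1 at 6 days (Hhip), and at 6 days all 5 had negative log2 fold changes. Without control 2 these 4 calls were lost (edgeR adjusted p = 0.0579 to 0.162) while the log2 fold changes were -3.68 for Ptch1, -5.16 for Foxe1 and -2.13 for Hhip at 14 days and -1.83 for Hhip at 6 days, against -3.62, -5.07, -2.80 and -2.47 with it. Each was also lost without other single libraries. With range B as a covariate Ptch1 (log2 fold change -2.51, edgeR adjusted p = 0.00802) and Foxe1 (-3.55, edgeR adjusted p = 0.0247) fell at 6 days too, and Gli1 fell at 14 days (-1.84, edgeR adjusted p = 0.0108). DESeq2 and limma-voom also called these 3. Ptch1 is itself a floxed gene in every group, and the part of that in its values was not tested. Keratinocyte and basal cell carcinoma transcripts (Krt5, Krt14, Krt17, Trp63, Epcam and Cdh1) summed to 17361 to 34653 CPM at 14 days, 18316 to 24190 CPM at 6 days and 17063 to 31929 CPM in control. Keratinocyte transcripts were therefore present in every library, but this sum does not tell carcinoma cells from normal basal keratinocytes. In bulk samples, fewer cells of a type and less RNA per cell cannot be told apart.

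LEF/TCF factors bind DNA at CTTTGAT or the shorter CTTTGA, and these letters were searched on both strands in the RefSeq promoters of GRCm38.p6, 250 bases before to 50 bases after each annotated start. The search covered 13 promoters of 8 member genes. Notum had no entry among the RefSeq promoters, and Apcdd1 was left out of the search, so whether its promoter has a match was not tested. CTTTGAT was present in 1 of the 13 promoters, that of Sp5, against 3.73% of all 32851 promoters. CTTTGA, which every CTTTGAT contains, was present in 2 of the 13, against 16% of all promoters. These were the promoter of Sp5 and 1 of Lef1, and the other Lef1 promoters had no match. The GLI sequence GACCACCCA, which Hedgehog effectors bind, had no match in the 13 promoters, against 0.253% of all promoters. The 250 upstream bases of the 2 matched promoters are shown because they carry the letters through which these factors are known to act. Capitals mark CTTTGA or its reverse complement TCAAAG, the first Sp5 match starting 204 bases and the second 104 bases before the start. The first Sp5 match is followed by g and the second by t, so the second is the CTTTGAT. The Lef1 matches start 180 and 120 bases before an annotated start that lies inside the gene. A match is a description of the letters and not a shown binding site.
Sp5, chr2:70474673-70474922, plus strand: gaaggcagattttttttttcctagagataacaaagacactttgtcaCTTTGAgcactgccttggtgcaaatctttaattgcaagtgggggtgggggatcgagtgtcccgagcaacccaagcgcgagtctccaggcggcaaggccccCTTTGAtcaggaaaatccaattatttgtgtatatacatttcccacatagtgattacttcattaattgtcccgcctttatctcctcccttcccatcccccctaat
Lef1, chr3:131156044-131156293, plus strand: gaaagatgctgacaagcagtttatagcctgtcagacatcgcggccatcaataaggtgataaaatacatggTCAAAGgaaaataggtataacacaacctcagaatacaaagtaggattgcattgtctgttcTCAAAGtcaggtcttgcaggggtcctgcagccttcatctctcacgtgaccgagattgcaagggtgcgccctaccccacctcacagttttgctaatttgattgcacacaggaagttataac

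Levels between genes were compared by deposited RPKM, which are per gene length. Ctnnb1 was the highest member in every group, at 197 RPKM at 14 days, 238 RPKM at 6 days and 328 ± 113 RPKM in control (SD, n = 4). Apcdd1 came next, at 76.1, 27.4 and 17.6 RPKM in the same groups, and Tcf7 followed at 5.06, 7.57 and 7.13 RPKM. Axin2 averaged 3.14 RPKM at 14 days, 5.17 RPKM at 6 days and 1.9 RPKM in control, and Lef1 1.91, 4.45 and 2.25 RPKM. Nkd1, Nkd2, Ascl2 and Notum lay between 0.331 and 3.9 RPKM in group means, and Sp5 was last in every group. Among neighbours in this order, the libraries did not overlap between Ctnnb1 and Apcdd1 in any group. At 14 days they also did not overlap between Apcdd1 and Tcf7, Axin2 and Lef1, or Notum and Sp5. In control they did not overlap between Notum and Sp5, and all other neighbours overlapped.

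**Figure D1:**
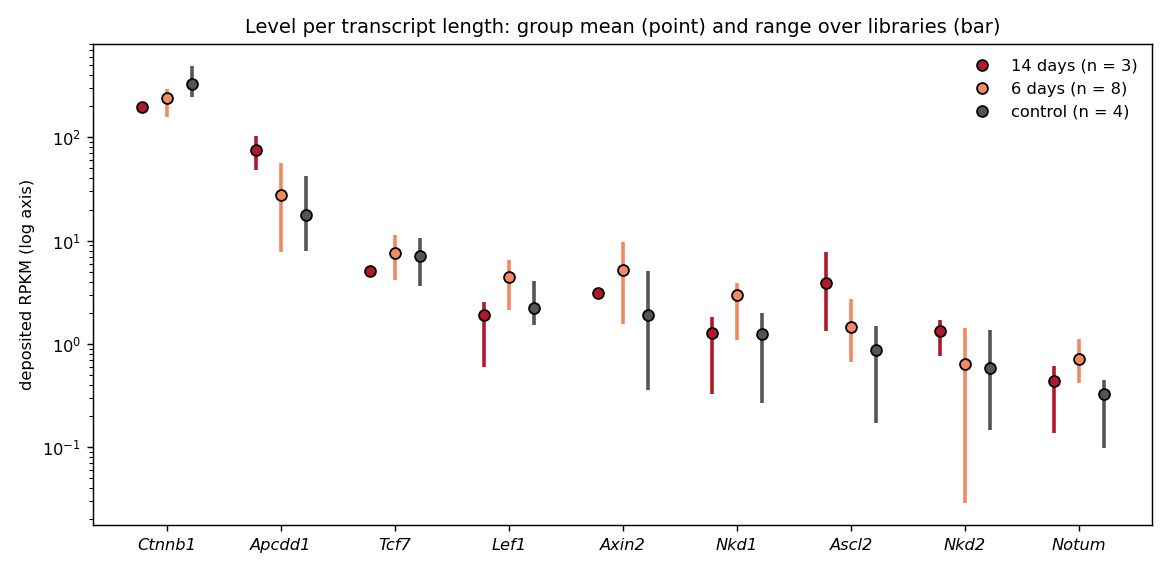
Deposited RPKM (log axis) of the members except Sp5 at 14 days, at 6 days and in control. Points mark group means and bars the lowest to highest library, and Sp5, the lowest member, is not drawn. Ctnnb1 stood highest in each group (197 RPKM at 14 days and 328 RPKM in control), with Axin2 and Lef1 among the members below it.

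The first question was whether the Wnt circuit changed with 6 days of Hedgehog inhibition. Of the 9 members tested, 0 passed edgeR's quasi-likelihood test (Benjamini-Hochberg adjusted p under 0.05), against 1.26% of 18751 genes (0.485% higher and 0.773% lower). Before adjustment 5 of the 9 had p under 0.05, namely Axin2, Lef1, Nkd1 and Notum with positive log2 fold changes and Ctnnb1 with a negative one, against 12.7% of all genes. Of the 9, 8 had a positive log2 fold change, and the median was 0.78, against 0.03 over all genes. DESeq2 and limma-voom with sample weights called 0 of the 9 at 6 days as well, against 846 and 826 of all 18751 genes. No tested member had its 6-day libraries all above or all below the controls, against 1.22% of genes above and 1.47% below.

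At 14 days against control, 0 of 9 members passed, against 6.6% of all genes (3.25% higher and 3.35% lower), and 3 of 9 had an unadjusted p under 0.05 (Apcdd1, Ascl2 and Ctnnb1), against 23.3%. The median log2 fold change was 0.44, against -0.02 over all genes, with 6 positive and 3 negative. Here the tool mattered: DESeq2 called 3 members (Apcdd1, Ascl2 and Ctnnb1) and limma-voom with sample weights 4 (those and Axin2). Over all 18751 genes these tools also called more, 2752 and 4205, against 1238 with edgeR. Between 14 and 6 days 0 of 9 passed, against 3.89% of all genes (2.14% higher and 1.75% lower), and 4 of 9 had an unadjusted p under 0.05 (Lef1, Nkd1, Apcdd1 and Ascl2), against 23.1%. The median was -0.59, against -0.06 over all genes. In that comparison DESeq2 called 1 member, Lef1, and limma-voom 3, Lef1, Apcdd1 and Nkd2. Over all 18751 genes they called 2585 and 4693, against 730 with edgeR. No member separated the 14-day from the 6-day libraries, against 5.42% of genes higher and 6.28% lower. The comparisons share libraries, so their values are set side by side and not taken as separate evidence.

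**Figure D2:**
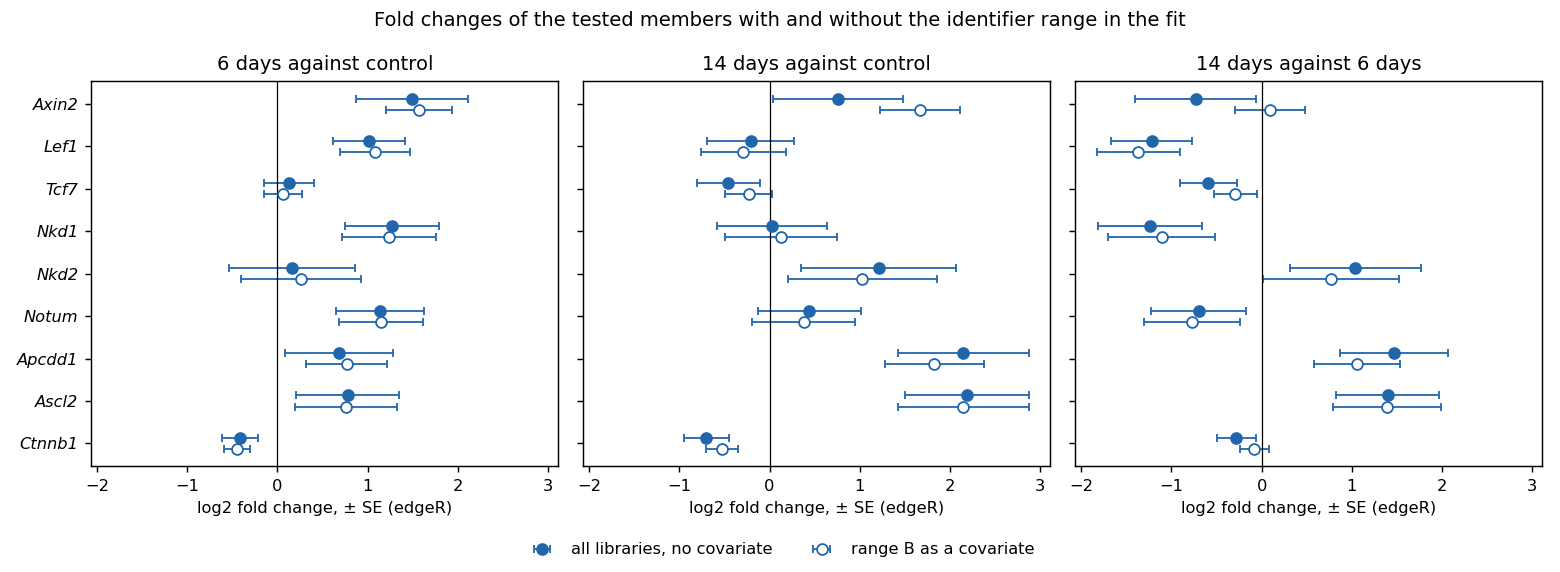
Log2 fold changes (x axis, edgeR, bars ± SE) of the 9 tested members in the 3 comparisons, filled points from the fit without covariates and open points with range B as a covariate. Axin2, Lef1, Nkd1 and Notum lie above 1 at 6 days against control, Apcdd1 and Ascl2 above 2 at 14 days against control, and the open point of Axin2 moves to 1.67 at 14 days against control.

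Axin2 (Entrez 12006, chr11:108917828-108950783) encodes the inducible scaffold of the destruction complex and is the most used readout of canonical Wnt activity. It stood at 20.4, 18 and 20.6 CPM in the 3 14-day libraries, between 9.76 and 60.4 CPM (median 28.6) in the 6-day libraries, and at 7.56, 2.23, 5.87 and 30.7 CPM in controls 1 to 4. Every 14-day and 6-day library lay above controls 1 to 3, and control 4 of range B lay above all 14-day libraries and above the 5 6-day libraries of range A. Means were 19.7 ± 1.44 CPM at 14 days (SD, n = 3), 32.6 ± 18.7 CPM at 6 days (n = 8) and 11.6 ± 12.9 CPM in control (n = 4). At 6 days the log2 fold change was 1.49 ± 0.62 SE (edgeR adjusted p = 0.318), and at 14 days 0.76 ± 0.72 SE (edgeR adjusted p = 0.573).

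The spread of Axin2 followed the identifier ranges. In range A it averaged 20.2 ± 8.9 CPM at 6 days (n = 5) and 5.22 ± 2.73 CPM in control (n = 3), and in range B 53.3 ± 6.23 CPM at 6 days (n = 3) and 30.7 CPM in the single control. Axin2 was the only tested member whose 6-day libraries lay above the controls within both ranges, a pattern that 2.9% of all tested genes showed (3.37% the opposite one), and 0 members lay below them in both. Within range A the log2 fold change was 1.93 (edgeR adjusted p = 0.0729) and in range B alone 0.79 (edgeR adjusted p = 0.109). With range B as a covariate Axin2 rose 2.98-fold at 6 days (log2 1.57 ± 0.37 SE, edgeR adjusted p = 0.0253). In the same fit it rose 3.17-fold at 14 days (log2 1.67 ± 0.44 SE, edgeR adjusted p = 0.0195), a value that treats range C, which has no control of its own, as equal to range A. That fit called 2.04% of genes higher and 2.58% lower at 6 days, 8.32% higher and 8.72% lower at 14 days, and 5.33% higher and 5.53% lower between 14 and 6 days, where it called 0 members. Without control 4 the 6-day log2 fold change was 2.64 (edgeR adjusted p = 0.0406) and the 14-day one 1.91 (edgeR adjusted p = 0.0847). That fit leaves the 6-day libraries of range B without a control of their range, so its 6-day value mixes range with treatment. The difference between the 2 within-range effects was -1.13 on the log2 scale (edgeR unadjusted p = 0.155, adjusted 0.62). At 14 days against 6 days the log2 fold change was -0.73 (edgeR adjusted p = 0.55), and 0.09 with range B as a covariate (edgeR adjusted p = 0.913).

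Nkd1 and Nkd2 encode Naked cuticle proteins, which bind Dishevelled and dampen the signal. Nkd1 (Entrez 93960, chr8:88521342-88594887) stood at 1.74, 8.82 and 9.85 CPM at 14 days, 5.96 to 21 CPM (median 16.7) at 6 days, and 1.38, 10.6, 6.22 and 8.36 CPM in control. Of the 8 6-day libraries, 7 lay above every control, replicate 6 being the exception. The log2 fold change was 1.27 ± 0.52 SE at 6 days (edgeR adjusted p = 0.3) and 0.03 at 14 days (edgeR adjusted p = 0.982). The 6-day value was 1.28 for range A libraries and 1.11 for those of range B. Nkd2 (Entrez 72293, chr13:73818534-73847631) was less abundant, at 3.69, 7.12 and 8.29 CPM at 14 days, 0.14 to 6.87 CPM (median 2.29) at 6 days, and 2.22, 0.713, 6.4 and 1.71 CPM in control. Its log2 fold changes were 1.21 ± 0.86 SE at 14 days (edgeR adjusted p = 0.429) and 0.16 ± 0.70 SE at 6 days (edgeR adjusted p = 0.974). At 6 days Nkd2 gave 0.25 for range A and 0.26 for range B. Without control 3, the highest control, it gave 2.03 at 14 days and 0.97 at 6 days, neither called. The lowest 14-day library lay below 1 control, so the groups overlapped.

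Notum (Entrez 77583, chr11:120653788-120661193) encodes a secreted enzyme that removes the lipid from Wnt proteins. It stood at 0.465, 2.1 and 1.95 CPM at 14 days, 1.44 to 3.79 CPM (median 2.35) at 6 days, and 0.325, 1.37, 1.5 and 1.24 CPM in control. Of the 8 6-day libraries, 7 lay above every control, and replicate 6, the lowest, overlapped them. Its log2 fold change was 1.14 ± 0.49 SE at 6 days (edgeR adjusted p = 0.327; 1.33 for range A and 0.71 for range B) and 0.44 ± 0.57 SE at 14 days (edgeR adjusted p = 0.695). Of the exon bases of Notum, 38.1% are shared with genes on the other strand in the GENCODE vM21 annotation, and no source used here gives the strand handling, so their reads cannot be told apart.

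Apcdd1 (Entrez 494504, chr18:62922327-62953815) encodes a membrane protein of skin and hair follicle that inhibits Wnt signalling. It stood at 349, 163 and 256 CPM at 14 days, 26.3 to 186 CPM (median 56.5) at 6 days, and 138, 27, 40.1 and 25.9 CPM in control. Every 14-day library lay above every control, a separation in the higher direction that 11.7% of all tested genes showed, and the 14-day and 6-day groups overlapped. The log2 fold change at 14 days was 2.15 ± 0.73 SE (edgeR adjusted p = 0.0905), 1.83 with range B as a covariate (edgeR adjusted p = 0.0352) and 3.05 without control 1, the highest control (edgeR adjusted p = 0.0233). The covariate value again treats range C as equal to range A. Apcdd1 did not pass without range B (1.88, edgeR adjusted p = 0.0803) or in the 2 groups alone (2.14, edgeR adjusted p = 0.117). Without 14-day replicate 1 the log2 fold change was 1.87, not called. At 6 days against control it was 0.68 ± 0.60 SE (edgeR adjusted p = 0.762; 0.86 for range A and 0.51 for range B), and without control 1 it was 1.54. Myeloid transcripts (6 genes) also moved with 14 days, summing to 21.9 to 33.5 CPM at 14 days, 1.22 to 9.36 CPM at 6 days and 4.01 to 14.3 CPM in control. Against control 5 of the 6 had positive log2 fold changes and 1 a negative one, and C1qb was called. Cd68 did not rise (mean 4.37 CPM at 14 days and 4.94 CPM in control). Suprabasal transcripts (4 genes, all with positive log2 fold changes and Krt10 called) moved too, summing to 211 to 5848 CPM at 14 days, 153 to 990 CPM at 6 days and 169 to 626 CPM in control. Their part in the Apcdd1 value was not tested.

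**Figure D3:**
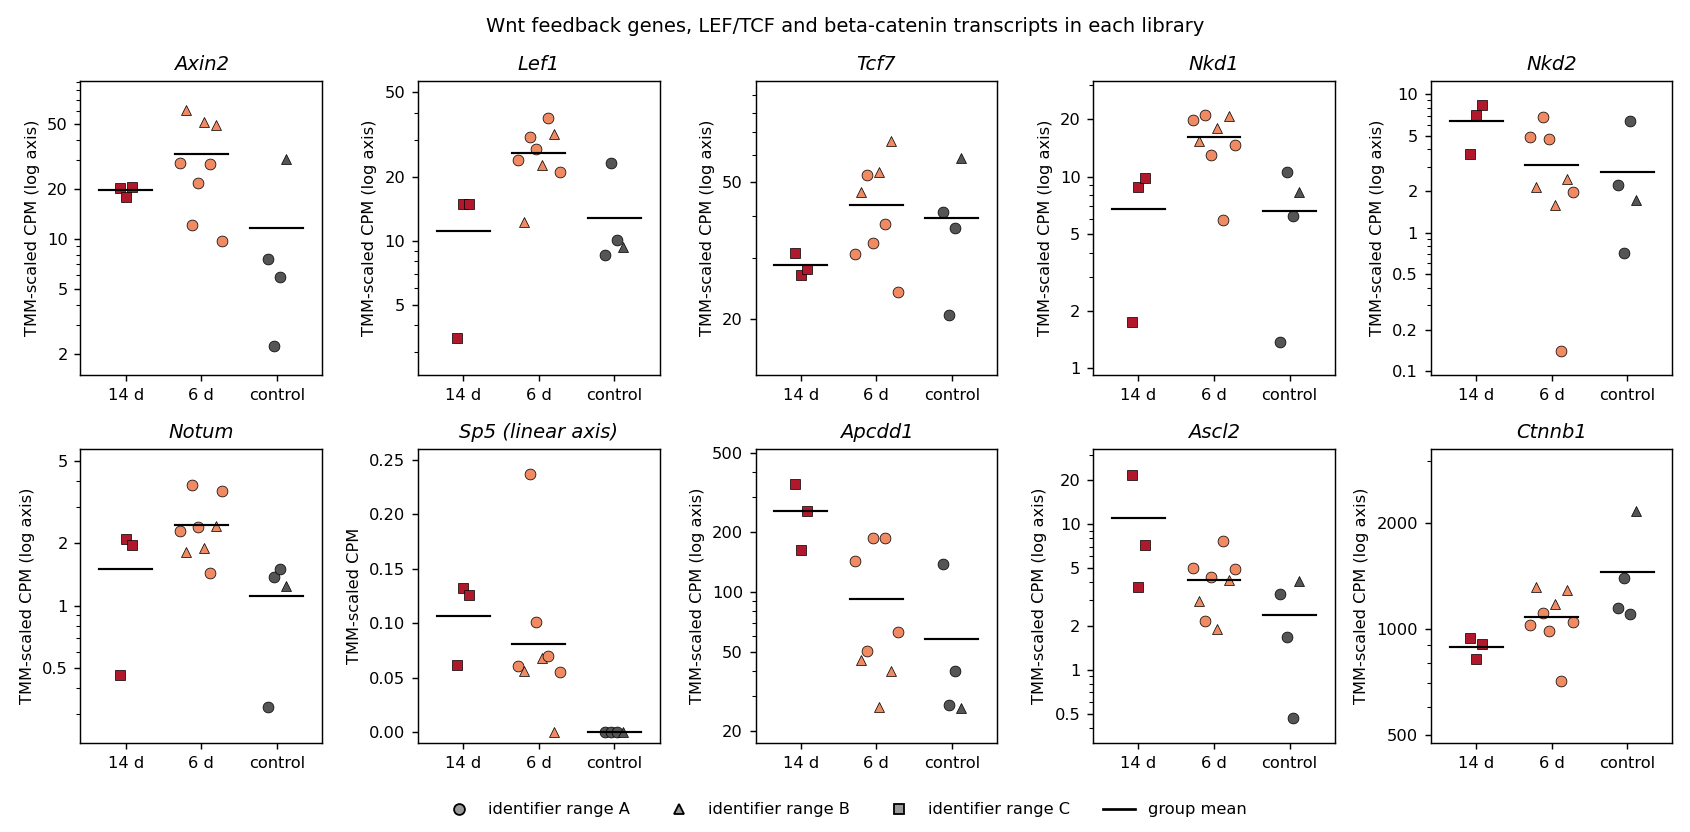
TMM-scaled CPM (log axis) of each member in every library, for 14 days, 6 days and control, with point shape for the identifier range and lines for group means (Sp5 on a linear axis). In Axin2 the range B libraries stand high in both 6 days (48.7 to 60.4 CPM) and control (30.7 CPM), and in Apcdd1 the 14-day libraries stand above all controls.

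Lef1 and Tcf7 encode the LEF/TCF proteins through which β-catenin acts on DNA. Lef1 (Entrez 16842, chr3:131110297-131224357) stood at 3.49, 14.9 and 14.9 CPM at 14 days, 12.3 to 37.7 CPM (median 25.6) at 6 days, and 8.62, 23.3, 10.1 and 9.37 CPM in control. The 6-day libraries overlapped the controls through control 2, and only 6-day replicate 2 lay below the highest 14-day library. The 6-day log2 fold change was 1.02 ± 0.40 SE (edgeR adjusted p = 0.277), and for range A and range B libraries it was 0.99 and 1.25. At 14 days it was -0.21 ± 0.48 SE against control (edgeR adjusted p = 0.841) and -1.22 ± 0.45 SE against 6 days (edgeR adjusted p = 0.131). Tcf7 (Entrez 21414, chr11:52246527-52283383) stood at 31.2, 26.8 and 27.9 CPM at 14 days, 23.9 to 65.9 CPM (median 42.2) at 6 days, and 41.1, 20.5, 36.7 and 59.1 CPM in control. It averaged 28.6 ± 2.31 CPM at 14 days (n = 3), 43.1 ± 14.0 CPM at 6 days (n = 8) and 39.4 ± 15.9 CPM in control (n = 4), and the groups overlapped. Its log2 fold changes were -0.46 at 14 days against control (edgeR adjusted p = 0.463) and 0.13 at 6 days (edgeR adjusted p = 0.943), where range A gave 0.11 and range B -0.10. Of the exon bases of Lef1, 13.7% are shared with a gene on the opposite strand, and Tcf7 shares none.

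T cells also express Lef1 and Tcf7, so 8 T and NK cell transcripts were summed. They came to 2.24 to 5.08 CPM at 14 days, 1.47 to 4.54 CPM at 6 days and 4.94 to 15.2 CPM in control, highest in control 3, and Lck made up most of the sum. None of the 8 genes was at 0 in all libraries of a group, and Cd3e had no read in 7 of 8 6-day libraries and in 2 of 4 controls. Hair matrix and cortex transcripts (5 of 6 measured, Krt85 being unmatched) summed to 18.4 to 30.8 CPM at 14 days, 34.1 to 202 CPM at 6 days and 77.9 to 220 CPM in control. Hoxc13 (means of 10.3, 75.5 and 86.3 CPM in these groups) and Msx2 made up most of the sum. At 14 days against control 4 of the 5 had negative log2 fold changes and 1 a positive one, and Hoxc13 was called. Krt35 did not fall (mean 2.11 CPM at 14 days and 1.57 CPM in control). Hoxc13 was highest among controls in control 4 of range B (173 CPM). Melanocyte transcripts (4 genes) summed to 38.8 to 280 CPM at 14 days, 41.6 to 655 CPM at 6 days and 26.1 to 477 CPM in control. Fibroblast and dermal papilla transcripts (6 genes) summed to 5.32 to 8.82, 4.06 to 19.7 and 8.61 to 21.4 CPM in the same groups. The part of all these cells in the Lef1 and Tcf7 values was not tested. The first 14-day library had the lowest Lef1, Nkd1 and Notum of the 3 14-day libraries, and the highest Apcdd1, Ascl2 and suprabasal keratin sum (5848 CPM over 4 genes, against 211 CPM in the lowest 14-day library), and the part of these in the results was not tested.

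Sp5 and Ascl2 are transcription factor genes that answer to Wnt. Sp5 (Entrez 64406, chr2:70474923-70477726) encodes a zinc finger protein that dampens other Wnt targets, and its promoter was the only one with CTTTGAT among the 8 member genes searched. It was near the floor, with counts of 9, 17 and 15 at 14 days, 2, 5, 8, 4, 17, 2, 0 and 2 at 6 days, and 0 in each of the 4 controls. Reads were found in 3 of 3 14-day libraries, 7 of 8 6-day libraries and 0 of 4 controls. The pooled level was 0.104 CPM at 14 days (95% Poisson interval 0.0747 to 0.141), 0.0538 CPM at 6 days (0.0384 to 0.0732) and 0 in control. The pooled Sp5 level was 6.66 times a floor of 3 counts over the control group (0.0156 CPM) at 14 days and 3.44 times it at 6 days. This floor is a fixed count, so the ratios carry no confidence level. These intervals cover counting error only. Sp5 failed the filter on low counts, and a two-sided exact permutation test of log2(CPM + 1) over libraries gave p = 0.0571 at 14 days against control, the smallest that 35 arrangements allow, and p = 0.0202 at 6 days (0.0857 and 0.0606 after adjustment over 3 comparisons).

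Ascl2 (Entrez 17173, chr7:142966822-142969264) encodes a basic helix-loop-helix factor that is a Wnt target in intestinal stem cells. It stood at 21.9, 3.73 and 7.19 CPM at 14 days, 1.9 to 7.67 CPM (median 4.23) at 6 days, and 3.33, 1.69, 0.469 and 4.07 CPM in control. The 14-day mean rested on replicate 1, and replicate 2 lay below 1 of the controls. Its 14-day log2 fold change was 2.19 ± 0.69 SE (edgeR adjusted p = 0.0699), and without 14-day replicate 1 it was 1.19. At 6 days it was 0.78 ± 0.57 SE (edgeR adjusted p = 0.682), and the range A and range B values, 1.37 and -0.45, had opposite signs. The range difference of -1.81 did not pass (edgeR adjusted p = 0.547).

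Ctnnb1 (Entrez 12387, chr9:120933400-120960507) encodes β-catenin, which is controlled mainly by the destruction of the protein, so its transcript is not a readout of pathway activity. It stood at 944, 820 and 905 CPM at 14 days, 708 to 1312 CPM (median 1077) at 6 days, and 1143, 1393, 1098 and 2165 CPM in control, control 4 being the highest. All 14-day libraries lay below all controls, a separation in the lower direction that 11.7% of all tested genes showed. The log2 fold changes were -0.70 ± 0.25 SE at 14 days (edgeR adjusted p = 0.111) and -0.42 ± 0.20 SE at 6 days (edgeR adjusted p = 0.389). The 6-day value was -0.33 for range A and -0.79 for range B, where the lone control was the highest library of all. Of its exon bases, 15.1% are shared with other genes (Ulk4 on the opposite strand and the microRNA gene Mir7090).

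Genes around the members were counted from lists that were chosen with earlier results of these data known. Over all genes, 6.6% passed at 14 days, 1.26% at 6 days and 3.89% between 14 and 6 days. Median log2 fold changes over all genes were -0.02, 0.03 and -0.06. Of 16 receptors and transducers of the pathway (such as Lrp6, Dvl2, Axin1, Apc, Gsk3b and Tnks), 0 passed in any comparison, with median log2 fold changes of -0.12 at 14 days, 0.06 at 6 days and -0.14 between 14 and 6 days. Of 12 nuclear partners (such as Tcf7l1, Tcf7l2, Bcl9, Pygo2 and the Groucho-type corepressors Tle1 to Tle4), 0 passed, with medians of -0.19, 0.08 and -0.28. Nearest to the threshold were the corepressor gene Tle2, with a log2 fold change of 1.37 at 6 days (edgeR adjusted p = 0.0626), and Apc2, a relative of Apc, with one of 1.69 at 14 days (edgeR adjusted p = 0.0621).

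Among 16 further genes known to answer to Wnt, 10 were tested. Their median log2 fold changes were 0.02 at 14 days (5 positive and 5 negative), 0.39 at 6 days (6 positive and 4 negative) and -0.07 between 14 and 6 days. The negative ones at 14 days included Ccnd1 (-2.57, edgeR adjusted p = 0.114) and Mycn (-1.37, edgeR adjusted p = 0.163). At 14 days 2 rose (Rnf43 and Tnfrsf19), against 3.25% of all genes, and 1 fell (Edar), against 3.35%. At 6 days 1 fell (Edar), against 0.773% of all genes. Rnf43, a ubiquitin ligase that removes Frizzled receptors and so feeds back on the pathway, averaged 88.9 ± 11 CPM at 14 days (n = 3), 53.2 ± 12.5 CPM at 6 days (n = 8) and 32.2 ± 6.16 CPM in control (n = 4). Its log2 fold change was 1.47 ± 0.24 SE at 14 days (edgeR adjusted p = 0.0038) and 0.73 at 6 days (edgeR adjusted p = 0.0926). The 6-day value passed when range B was a covariate (0.72, edgeR adjusted p = 0.0458) and with DESeq2 (0.69, adjusted p = 0.0265), but not with limma-voom (0.70, adjusted p = 0.0859), and it was 0.78 in range A alone and 0.52 in range B alone. Edar, the ectodysplasin receptor of hair placodes, averaged 0.893 ± 0.0862 CPM at 14 days (n = 3), 1.6 ± 1.6 CPM at 6 days (n = 8) and 15.7 ± 8.96 CPM in control (n = 4). It fell by 4.13 on the log2 scale at 14 days (edgeR adjusted p = 0.0127), a call lost without any 1 of the 14-day libraries (edgeR adjusted p = 0.0537 to 0.0661), and by 3.28 at 6 days (edgeR adjusted p = 0.0137), a call lost without control 2 (edgeR adjusted p = 0.0519). Range A alone gave -3.74 at 6 days (edgeR adjusted p = 0.0177) and range B alone -2.87 (edgeR adjusted p = 0.202), and without 6-day replicate 7 the value was -3.92. Tnfrsf19, a TNF receptor family member of the follicle, had a log2 fold change of 3.32 ± 0.94 SE at 14 days (edgeR adjusted p = 0.0464), with 173 ± 179 CPM at 14 days (n = 3) and 17.4 ± 18.5 CPM in control (n = 4), and its call was kept in 11 of 24 settings. Without 14-day replicate 1 its log2 fold change was 2.05 (edgeR adjusted p = 0.285), and without control 1 it was 4.36. Lgr5 had a log2 fold change of 0.37 at 14 days and also at 6 days, and did not pass, and the allele carries a GFP reporter in every group.

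**Figure D4:**
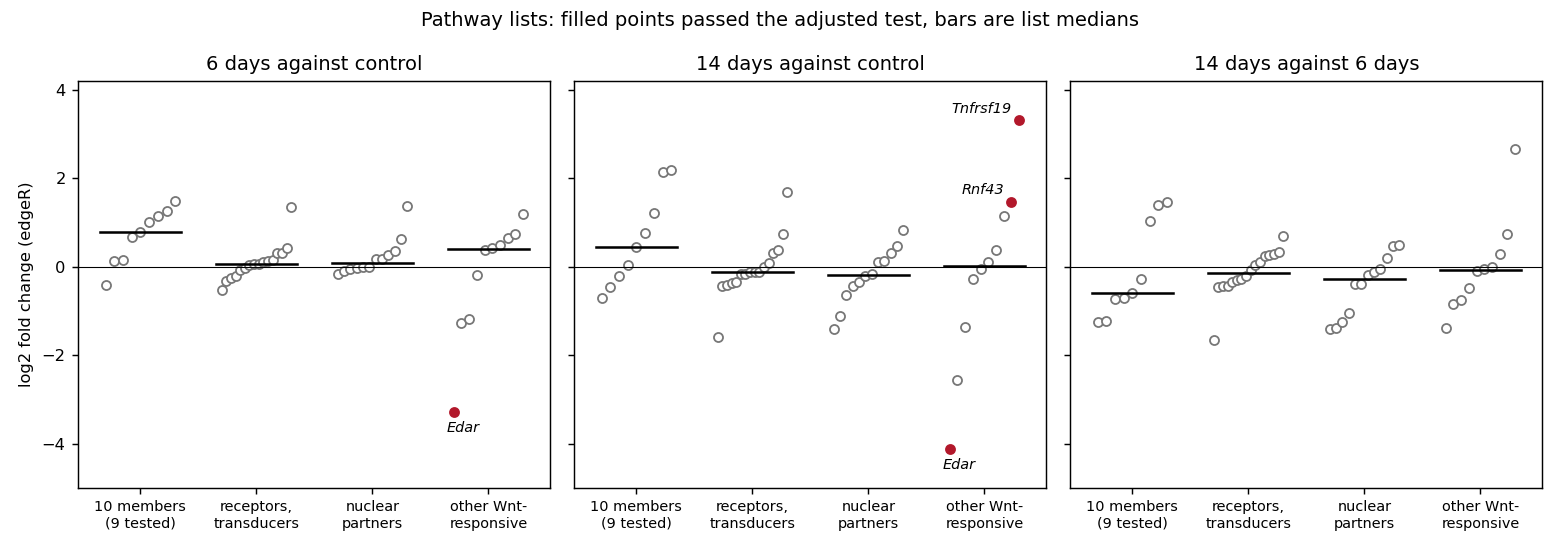
Log2 fold changes (y axis, edgeR) of the tested genes in the members, receptors and transducers, nuclear partners and other Wnt-responsive genes for the 3 comparisons, 1 point per gene, filled where it passed, with the list median as a line. The member medians were 0.44 at 14 days and 0.78 at 6 days against control, and the receptor and nuclear partner medians lay between -0.28 and 0.08. The medians of the other Wnt-responsive genes were 0.02 at 14 days and 0.39 at 6 days against control, and -0.07 between 14 and 6 days.

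The gene most like Axin2 across the 15 libraries, among 10045 genes with an established name and above a minimum level, was Unc5b (Pearson r = 0.98 on log2 CPM, 0.89 after centring on group and range), followed by Ccdc6 (0.92, centred 0.76), Dnajc13 (0.91, centred 0.58), Gas7 (0.91, centred 0.54) and Nmt2 (0.91, centred 0.67). Those most like Lef1 were Spo11 (0.88, centred 0.78), Fam13a (0.87, centred 0.87), Slc50a1 (0.85, centred 0.80), Txnrd2 (0.83, centred 0.69) and Zfp414 (0.80, centred 0.68). These r values are descriptions, and the libraries of a range share depth. Among the members, Lef1 had its highest r with Nkd1 (0.73, centred 0.64) and Notum (0.73, centred 0.61). Axin2 had its highest r with Tcf7 (0.60, centred 0.44) and gave 0.10 with Lef1 (centred -0.29). After centring, Axin2 gave 0.83 with Apcdd1 (0.08 before), -0.62 with Ctnnb1 (0.00 before), -0.57 with Notum (0.19 before) and -0.53 with Nkd1 (0.31 before).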

How the data were processed

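PolyA RNA of sorted tumour cells was measured in 15 libraries. Per the file headers, the authors deposited counts of uniquely aligned reads per gene, and RPKM values that divide those counts by gene length and a library size factor. GSNAP and GRCm38 are named in the submitters' processing notes, without versions, and no source used here gives strand handling. The deposited counts went unchanged into the quasi-likelihood F test of edgeR 4.0.16 (R 4.3.3), with TMM factors and the filterByExpr filter by group. All 15 libraries shared 1 model without covariates, with 12 residual degrees of freedom and 18751 genes tested. The threshold was 0.05 on p adjusted over all tested genes (Benjamini-Hochberg). RPKM was used only to order levels between genes, as it equals the counts up to factors for each gene and library (largest relative deviation 1.4e-13). Of 36528 genes, 31049 matched a RefSeq symbol and 5479 did not. Coordinates and promoters are RefSeq's of GRCm38.p6, shared exon bases GENCODE vM21's.

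Members, lists and settings were chosen with earlier results of these data known. All 10 members were named, with other pathway genes where called or where a role was needed. A gene of the Hedgehog list is not reported here. Likeness was computed on log2 CPM (prior count 2) over genes averaging 10 CPM or more. Genes named only by a Gm, Rik or LOC name or an identifier were left out of that search. Identifier ranges were used as a covariate and as splits. Alternatives were RLE and other factors, filters, DESeq2 1.42.0, limma-voom (limma 3.58.1) with sample weights, 2-group fits and each library left out. Simulated counts, with 100 genes altered 2-fold and 100 altered 4-fold, tested edgeR: at 6 days against control it recovered 12 and 53 of these among 18256 genes with 0 false among 65 calls, for 14 days 7 and 37 among 18250 genes with 3 false among 47 calls, and for 14 against 6 days 10 and 41 with 3 false among 54 calls. Other steps ran in Python 3.11.15 (scipy 1.17.1, pandas 2.3.3, numpy 2.4.6; figures by matplotlib 3.10.9).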

Additional observations from a re-analysis of the deposited data

Results flagged for a closer look

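In 19 member-groups of 4 or 8 libraries, the highest or lowest library was compared with its nearest neighbour, and chance marks about 5 percent of groups. Lef1 in control replicate 2 stood at 23.3 CPM, far above the other controls. Sp5 in 6-day replicate 3 stood at 0.237 CPM, far above the other 6-day libraries, where all values rest on few reads. Apcdd1 in control replicate 1 stood at 138 CPM, far above the other controls.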

How the results depend on the processing

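No paired analysis was possible because the labels carry no replicate numbers. The members called were 0 in each comparison with edgeR. At 6 days against control range B as a covariate gave 1 (Axin2), and 0 to 1 with 1 library left out (1 without control 4, which leaves range B no control). At 14 days against control DESeq2 called 3, limma-voom 4, range B as a covariate 2 (Axin2 and Apcdd1) and the fit without range B 2 (Axin2 and Ascl2), and leaving out 1 library gave 0 to 1 (Apcdd1 without control 1). Between 14 and 6 days DESeq2 called 1 and limma-voom 3, and leaving out 1 library gave 0. No member changed sign past the threshold in any setting. Over all genes, 236 were called at 6 days, against 846 with DESeq2, 826 with limma-voom, 866 with range B as a covariate, 465 without range B, 468 in range A alone and 69 to 308 with 1 library left out. At 14 days 1238 were called, against 2752, 4205, 3196 and 2330 in the same first 4 settings, 374 with the 2 groups alone and 376 to 1438 with 1 library left out. Between 14 and 6 days 730 were called, against 2585, 4693, 2036 and 1322, 460 with no filter (67.8% higher, against 55.1% with the filter and 41.4% with DESeq2), and from 3 (without 14-day replicate 1) to 1138. The causes were not tested. With 3 and 4 libraries in the smaller groups, edgeR recovered few 2-fold changes in simulated data, so members changed by that much could go uncalled.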
